A study of Homo sapiens with 8 samples.

Results

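The genes described are the 3 CARMIL genes, CARMIL1 (NM_017640), CARMIL2 (NM_001013838) and CARMIL3 (NM_138360), and the 3 genes of the widely expressed actin capping protein, CAPZA1 (NM_006135), CAPZA2 (NM_006136) and CAPZB (NM_001206541). They are 6 of the 19305 transcript accessions counted, and all 6 passed the filter on low counts, as did 14565 accessions in all. They were chosen by name, as regulators and subunits of 1 complex, because CARMIL2 had been seen to stand about 2-fold higher with eIF2A siRNA in HEK293T cells and lower with eIF2A shRNA in H9 cells. The changes of CARMIL2 are therefore a description and carry no test, while the other 5 genes were tested.

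Capping protein is a heterodimer of an alpha subunit, encoded by CAPZA1 or CAPZA2, and the beta subunit encoded by CAPZB. It binds the fast-growing barbed ends of actin filaments and stops the addition and loss of subunits there, which keeps branched networks made by the Arp2/3 complex short and stiff, and it also caps the short actin-like filament of dynactin. CARMIL proteins hold a capping protein interaction motif, through which they bind the capped or free heterodimer and weaken its hold on the barbed end, and their leucine-rich repeats and membrane-binding part bring this activity to the plasma membrane. CARMIL2, also called RLTPR, is best known in T cells, where it takes part in costimulation through the receptor CD28.

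Polyadenylated RNA was sequenced in 4 groups of 2 libraries. HEK293T, a line derived from human embryonic kidney, carried eIF2A siRNA or control siRNA, and both of these groups were also treated with sodium arsenite, an oxidative stressor. H9 cells, which are human embryonic stem cells, carried eIF2A shRNA or control shRNA, with no arsenite named. The study asked what depends on eIF2A, a translation initiation factor, in stressed cells and in stem cells. The labels give no dose or time and no siRNA or shRNA sequence. They do not say whether replicate libraries are of different cultures, and p-values therefore cover only the spread between those libraries, which may be technical.

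Libraries held 21837052 to 32318668 gene counts. EIF2A, the targeted gene, stood at 5.58 and 5.98 CPM (counts scaled to library size, here with TMM, trimmed mean of M values, factors) with siRNA in HEK293T, against 17.5 and 18.3 CPM with control siRNA. H9 cells had 5.03 and 4.67 CPM with eIF2A shRNA, against 15.8 and 14.8 CPM with control shRNA, so the target was lower in every library labelled as a knockdown. Of 8 pluripotency markers, 7 were counted, and they summed to 5256 and 5356 CPM with eIF2A shRNA in H9, 5716 and 5733 CPM in the H9 controls and 137 to 151 CPM in HEK293T. Of 6 embryonic kidney markers, PAX8 stood at or near 0 in HEK293T, and the list summed to 86.8 to 92.2 CPM there, beside 77.8 and 81.4 CPM with eIF2A shRNA in H9 and 63.6 and 59.6 CPM in the H9 controls, so it sets the lines little apart. The 2 HEK293T control libraries differed from each other by 4.92 times sampling noise (chi-square per degree of freedom), against 1.35 to 1.80 in the other groups. In bulk RNA, fewer cells that hold a transcript and less of it per cell cannot be told apart.

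The alpha and beta subunit genes were the members whose promoters could be read, together with CARMIL3, and those of the subunits are shown because their transcripts moved in different directions in H9. The sequences are RefSeq windows of GRCh38.p14 that run from 250 bases before to 50 bases after the annotated gene start, 5′ to 3′ on the gene's own strand. CAPZA1 lies at chr1:112619582-112619881 on the plus strand, CAPZA2 at chr7:116862337-116862636 on the plus strand and CAPZB at chr1:19485490-19485789 on the minus strand. Capitals mark matches, on either strand, to the motifs listed after the sequences.
CAPZA1: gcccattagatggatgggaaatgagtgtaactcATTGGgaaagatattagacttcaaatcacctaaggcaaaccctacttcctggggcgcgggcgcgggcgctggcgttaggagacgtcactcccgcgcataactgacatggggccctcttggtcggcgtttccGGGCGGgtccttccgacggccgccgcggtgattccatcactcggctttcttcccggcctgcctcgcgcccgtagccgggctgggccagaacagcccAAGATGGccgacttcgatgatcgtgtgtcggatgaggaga
CAPZA2: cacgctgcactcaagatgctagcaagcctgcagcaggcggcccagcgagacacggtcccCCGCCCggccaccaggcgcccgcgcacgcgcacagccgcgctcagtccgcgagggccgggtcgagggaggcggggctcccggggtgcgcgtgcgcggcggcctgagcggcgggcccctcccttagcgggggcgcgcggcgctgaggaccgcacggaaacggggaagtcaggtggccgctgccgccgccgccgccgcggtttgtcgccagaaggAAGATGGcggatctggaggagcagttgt
CAPZB: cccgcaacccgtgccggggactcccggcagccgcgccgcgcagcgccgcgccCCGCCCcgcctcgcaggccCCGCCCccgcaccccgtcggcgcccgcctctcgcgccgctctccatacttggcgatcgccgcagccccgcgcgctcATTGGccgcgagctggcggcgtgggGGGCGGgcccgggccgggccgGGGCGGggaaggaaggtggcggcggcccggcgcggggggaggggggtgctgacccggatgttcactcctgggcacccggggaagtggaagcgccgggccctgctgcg

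The motifs searched were the GC box (GGGCGG), the CCAAT box (CCAAT), the cyclic AMP response element (TGACGTCA), the core of the antioxidant response element (TGACNNNGC), the AP-1 site (TGANTCA), the serum response factor's CArG box, and AAGATGG, which was added after the sequences had been read. The CAPZA1 window held 1 GC box, 1 CCAAT box and 1 AAGATGG. The CAPZA2 window held 1 GC box and 1 AAGATGG, and no CCAAT box. CAPZB differed in holding 4 GC boxes and 1 CCAAT box, with no AAGATGG. Among all 35116 promoter windows, 45% held a GC box, 34.6% a CCAAT box and 5.84% AAGATGG. Because AAGATGG was picked from the windows shown, its share of all windows tests nothing here. In both alpha subunit windows it lies after the gene start, and the letters from its ATG read as methionine, alanine and aspartate. It may therefore be the start of the coding sequence, which was not tested. Nothing is read from its presence in the alpha subunit windows or its absence from that of CAPZB. No window of the 3 held a cyclic AMP response element (1.85% of all windows), an antioxidant core (13.3%), an AP-1 site (7.71%) or a CArG box (1.29%) in these letters. G and C made up 60.7% of the CAPZA1 window, 75.3% of that of CAPZA2 and 82% of that of CAPZB, beside a median of 58.7% over all windows.

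CARMIL2 was at 43.9 and 46.1 CPM with eIF2A siRNA in HEK293T, against 19.2 and 20.8 CPM with control siRNA. Both knockdown libraries stood above both controls, at 2.24 times their level (log2 fold change 1.16 ± 0.060, standard error, SE). In H9 the direction was the opposite, with 31.9 and 33.0 CPM in the eIF2A shRNA libraries and 44.6 and 46.4 CPM in the controls. Both H9 knockdown libraries lay below both controls, at 0.713 times their level (log2 fold change -0.49 ± 0.059). The counts behind these levels were 1290 and 1335 with eIF2A siRNA and 441 and 661 in the HEK293T controls, and 826 and 777 with eIF2A shRNA and 956 and 940 in the H9 controls, so counting error was small beside the change in HEK293T. For scale, 0.35% of all genes tested were called and at least 2-fold higher in HEK293T, a share from which nothing is read here because CARMIL2 was chosen on this contrast. In level, the HEK293T knockdown libraries overlapped the H9 controls, and the HEK293T controls were the lowest of the 4 groups.

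**Figure D1:**
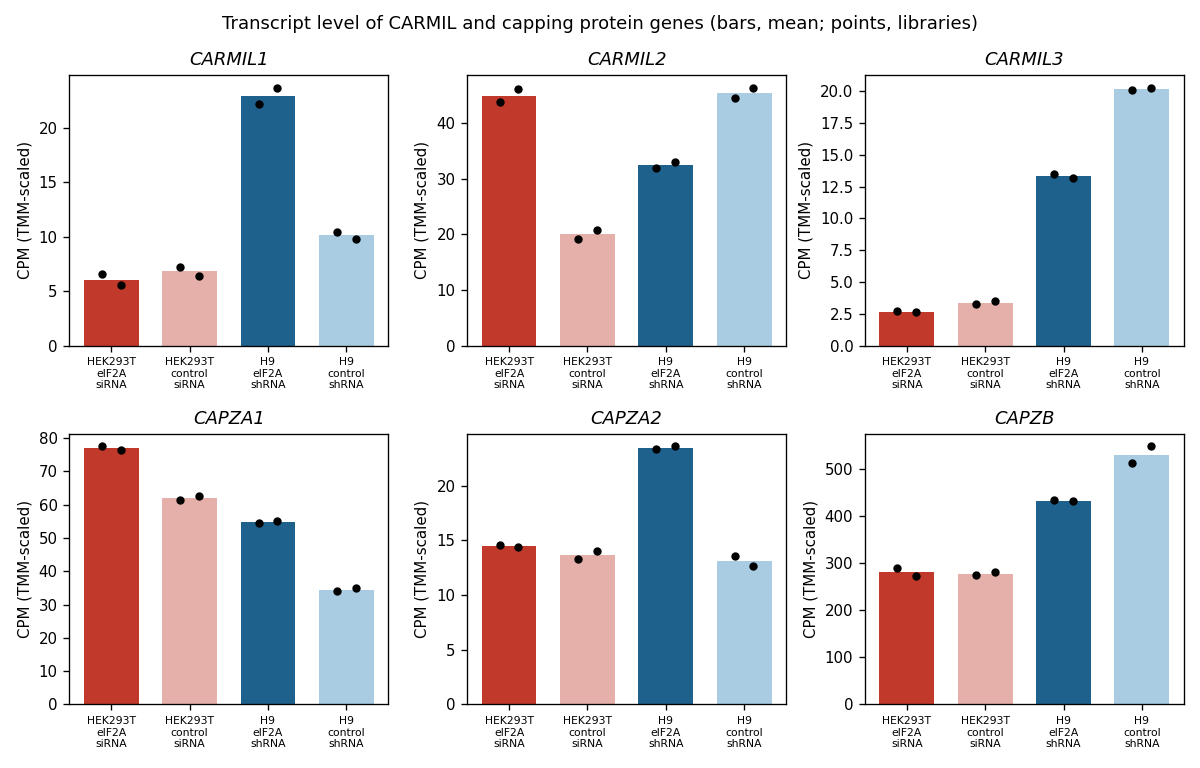
TMM-scaled CPM (vertical axis, linear from 0) of the 6 genes in each of the 4 groups, with eIF2A knockdown left of control in each line; bars are means of 2 libraries and points are the libraries. Both HEK293T groups had arsenite. CARMIL2 stood at 43.9 and 46.1 CPM with eIF2A siRNA against 19.2 and 20.8 CPM in its controls, while CARMIL1 and CAPZB overlapped between the HEK293T groups.

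Neither of the other CARMIL genes passed the test in HEK293T. CARMIL1, a regulator of lamellipodia and macropinocytosis, stood at 6.56 and 5.56 CPM with eIF2A siRNA in HEK293T, against 7.23 and 6.38 CPM in the controls. The groups overlapped, and the difference did not pass the test (log2 fold change -0.15 ± 0.12, adjusted p = 0.37, edgeR quasi-likelihood test with Benjamini-Hochberg adjustment over all genes, as throughout). CARMIL3, whose transcript is known mainly from brain, stood at 2.69 and 2.63 CPM with eIF2A siRNA and at 3.27 and 3.49 CPM in the controls. Its knockdown libraries lay below both controls, but the difference did not pass the test (log2 fold change -0.35 ± 0.16, edgeR adjusted p = 0.091).

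In H9 the 3 CARMIL genes split. CARMIL1 rose to 22.2 and 23.7 CPM with eIF2A shRNA, against 10.4 and 9.82 CPM in the controls, with no overlap (log2 fold change 1.18 ± 0.093, edgeR adjusted p = 1.7e-13). CARMIL3 fell to 13.5 and 13.1 CPM, against 20.1 and 20.3 CPM in the controls, also without overlap (log2 fold change -0.60 ± 0.085, edgeR adjusted p = 1.0e-07). CARMIL2, as given above, was on the side of CARMIL3. The effect of the knockdown on CARMIL1 differed between the lines by 1.33 ± 0.15 on the log2 scale, H9 minus HEK293T (edgeR adjusted p = 2.5e-09). For CARMIL3 the same difference was -0.25 ± 0.18 and did not pass the test (edgeR adjusted p = 0.24). For CARMIL2 it was -1.65 ± 0.084, given with no test.

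The makeup of the CARMIL transcripts is given as a description. Per kilobase of transcript, CARMIL2 made up 83.9 and 86.1% of the summed CARMIL level (CPM per kb) with eIF2A siRNA in HEK293T, against 66.7 and 69.6% in the controls. CARMIL1 made up 10.8 and 8.96% with eIF2A siRNA, against 21.7 and 18.5% in the controls, and CARMIL3 made up 5.24 and 4.995% against 11.6 and 11.9%. These shares hold the CARMIL2 level for which the genes were chosen, so nothing is read from them, and neither paralog's own level passed the test in HEK293T. In H9, CARMIL2 made up 49.3 and 49.3% with eIF2A shRNA, against 60.2 and 61.4% in the controls. There CARMIL1 made up 29.5 and 30.6%, against 12.1 and 11.2%, and took the place as second most abundant CARMIL transcript that CARMIL3 held in the controls. The share of CARMIL3 in H9 was 21.2 and 20.1% with eIF2A shRNA, against 27.7 and 27.4%.

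Of the capping protein subunit genes, CAPZA1 alone passed the test in HEK293T. CAPZA1, the more abundant alpha subunit transcript in both lines, rose to 77.5 and 76.4 CPM with eIF2A siRNA, against 61.4 and 62.7 CPM in the controls. Both knockdown libraries stood above both controls (log2 fold change 0.31 ± 0.044, edgeR adjusted p = 1.2e-06). CAPZA2, the second alpha subunit gene, stood at 14.6 and 14.4 CPM with eIF2A siRNA and at 13.3 and 14.0 CPM in the controls, a difference that did not pass the test (log2 fold change 0.08 ± 0.080, edgeR adjusted p = 0.50). CAPZB, the beta subunit, stood at 290 and 274 CPM with eIF2A siRNA and at 275 and 281 CPM in the controls. Its groups overlapped (log2 fold change 0.02 ± 0.035, edgeR adjusted p = 0.75). Counting the 5 genes other than CARMIL2, 1 passed the test in HEK293T, beside 28.7% of all genes tested, a share that 1 of 5 does not stand apart from. Their median log2 fold change was 0.02, beside 0.00 over all genes.

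In H9 the alpha subunit genes rose and the beta subunit gene fell. CAPZA1 rose to 54.47 and 55.01 CPM with eIF2A shRNA, against 34.1 and 34.9 CPM in the controls (log2 fold change 0.67 ± 0.053, edgeR adjusted p = 2.4e-13). CAPZA2 rose to 23.3 and 23.6 CPM, against 13.5 and 12.6 CPM in the controls (log2 fold change 0.84 ± 0.081, edgeR adjusted p = 2.4e-11). CAPZB fell to 434 and 432 CPM, against 513 and 548 CPM in the controls (log2 fold change -0.29 ± 0.034, edgeR adjusted p = 2.0e-09). None of the 3 overlapped between the groups, and among all genes tested 43.9% lay wholly above and 41% wholly below the controls in this sense. All 5 genes other than CARMIL2 passed the test in H9, 3 higher and 2 lower, but 71.3% of all genes tested did so as well, so that such calls are the rule in this line. Their median log2 fold change was 0.67, beside 0.02 over all genes.

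The effect of the knockdown on the subunit genes differed between the lines. H9 minus HEK293T, it differed by 0.36 ± 0.069 on the log2 scale for CAPZA1 (edgeR adjusted p = 3.4e-05), by 0.76 ± 0.11 for CAPZA2 (edgeR adjusted p = 6.3e-07) and by -0.31 ± 0.049 for CAPZB (edgeR adjusted p = 1.2e-06). Of the 5 genes other than CARMIL2, 4 passed this test of the difference, beside 58.1% of all genes. With DESeq2's Wald test the difference for CAPZA1 was 0.20 and was not called (adjusted p = 0.060).

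**Figure D2:**
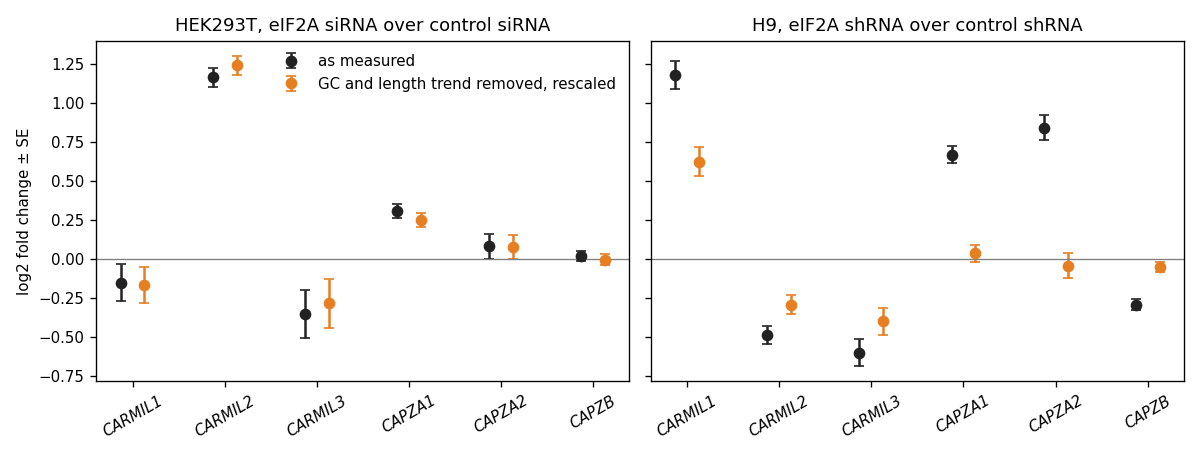
Log2 fold change, eIF2A knockdown over control, of the 6 genes in HEK293T with arsenite (left) and H9 (right); points are fitted values from 2 libraries a group and bars are ± SE. Black points are as measured, and orange points are after the GC and length trend was removed and the libraries were rescaled. In H9 the 3 subunit genes lay within 0.1 of 0 after removal, while CARMIL1 stayed at 0.62 and CARMIL3 at -0.40.

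The H9 changes went along with the base composition of the transcripts. Over 14494 genes, Spearman's rho of the H9 log2 fold change was -0.68 against GC content and 0.45 against transcript length, and that of the HEK293T one was -0.10 against either (given as descriptions across genes, which share libraries). The 3 members that rose in H9 were the 3 with the lowest GC content, CAPZA2 at 40.7%, CAPZA1 at 42.4% and CARMIL1 at 46.3%. The 3 that were lower were CAPZB at 53.0%, CARMIL3 at 61.6% and CARMIL2 at 65.4%. Genes with under 45% GC had a median log2 fold change of 0.85 in H9, which is close to the value of CAPZA2 and above that of CAPZA1. Those with 45 to 50% had a median of 0.30, and CARMIL1 stood 0.88 above it. CARMIL1 lies near the lower edge of that range, next to the range with the median of 0.85, so this distance depends on where the ranges are cut. At 50 to 55% the median was -0.13, and at 60% or more it was -0.40, and from the median of their own GC range CAPZB lay at -0.16, CARMIL3 at -0.20 and CARMIL2 at -0.09. In HEK293T the same comparison put CARMIL2 1.24 above the median of its range.

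**Figure D3:**
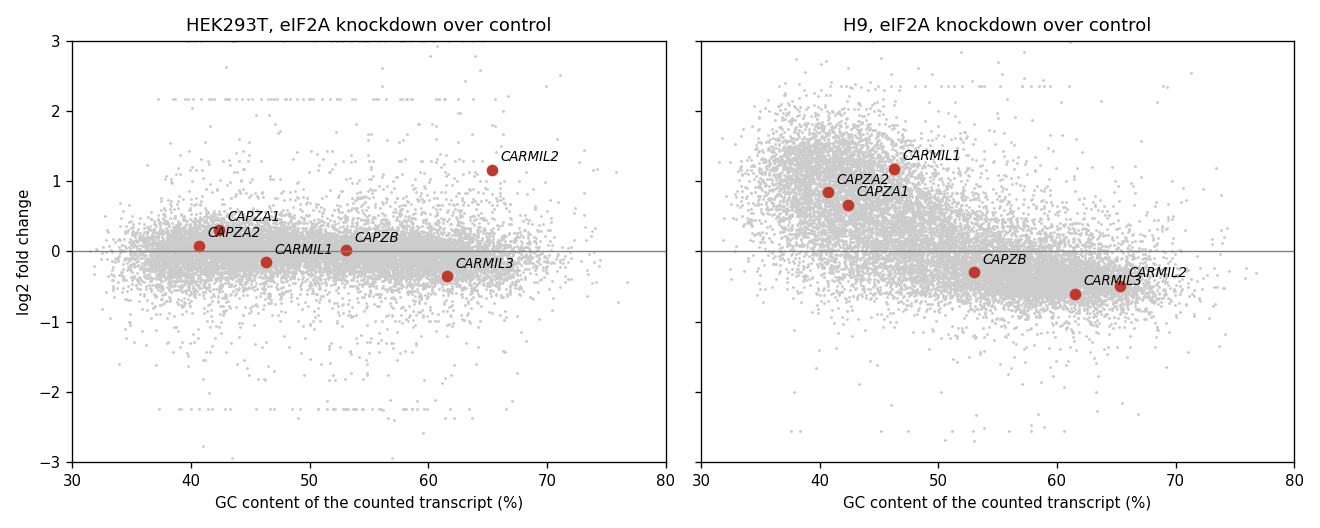
Log2 fold change, eIF2A knockdown over control (vertical axis), against the GC content of the counted transcript in percent (horizontal axis) in HEK293T with arsenite (left) and H9 (right); grey points are all genes tested that have a GC value, and red points are the 6 members. The axes leave out 107 genes in HEK293T and 70 in H9. In H9 the grey cloud slopes down and the members run down with it. CARMIL1 stands 0.88 above the median of its GC range, near whose lower edge it lies. In HEK293T the cloud is flat and CARMIL2 stands above it.

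When a smooth trend with GC content and length was removed from each library and the libraries were scaled again, a step chosen after the data had been seen, the members parted into those that kept a change and those that did not. CARMIL1 was 0.62 ± 0.092 higher on the log2 scale in the H9 knockdown (edgeR adjusted p = 6.3e-07) and CARMIL3 -0.40 ± 0.084 (edgeR adjusted p = 1.4e-04). CARMIL2 was at -0.29 ± 0.059, with no test. The subunit genes no longer passed: CAPZA1 stood at 0.04 ± 0.053 (edgeR adjusted p = 0.62), CAPZA2 at -0.04 ± 0.081 (edgeR adjusted p = 0.69) and CAPZB at -0.05 ± 0.032 (edgeR adjusted p = 0.16). Without the second scaling, removal of the trend moved the median of all genes in H9 to 0.16 and called 53.9% of them, and the subunit genes then read differently. CAPZA1 stood at 0.18 (edgeR adjusted p = 0.0043) and CAPZB at 0.09 (edgeR adjusted p = 0.016), both called higher, so that CAPZB turned in sign, and CAPZA2 at 0.10 was not called (adjusted p = 0.30). CARMIL1 was at 0.77, CARMIL3 at -0.26 (edgeR adjusted p = 0.010) and CARMIL2 at -0.15 by this removal alone. In HEK293T the same step with rescaling left CARMIL2 at 1.24 ± 0.060 and CAPZA1 at 0.25 ± 0.043 (edgeR adjusted p = 2.6e-05). The difference between the lines remained for CARMIL1 at 0.79 (edgeR adjusted p = 4.4e-05), turned to -0.22 for CAPZA1 (edgeR adjusted p = 0.011; -0.07 and not called without rescaling, adjusted p = 0.44) and did not pass for CAPZA2 at -0.12 (adjusted p = 0.42) or CAPZB at -0.05 (adjusted p = 0.41). The trend in H9 cannot be told apart from the knockdown in these libraries, and its source was not tested.

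Set per kilobase, the subunit genes and CARMIL2 kept 1 order in all groups. With eIF2A siRNA in HEK293T the mean levels were 136 ± 5.44 CPM per kb for CAPZB, 25.5 ± 0.265 for CAPZA1, 9.60 ± 0.344 for CARMIL2, 2.80 ± 0.033 for CAPZA2, 1.12 ± 0.130 for CARMIL1 and 0.578 ± 0.0091 for CARMIL3 (SD, n = 2). In the HEK293T controls they were 134.4 ± 2.0, 20.6 ± 0.296, 4.27 ± 0.235, 2.64 ± 0.0891, 1.25 ± 0.111 and 0.735 ± 0.0339 CPM per kb for the same genes in the same order (SD, n = 2). The order of the 6 genes was the same in both HEK293T groups and in the H9 knockdown, and no pair of neighbours in it overlapped.

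With eIF2A shRNA in H9 the mean levels were 209 ± 0.962 CPM per kb for CAPZB, 18.1 ± 0.126 for CAPZA1, 6.92 ± 0.154 for CARMIL2, 4.52 ± 0.0369 for CAPZA2, 4.22 ± 0.192 for CARMIL1 and 2.90 ± 0.0529 for CARMIL3 (SD, n = 2). In the H9 controls CAPZB, CAPZA1 and CARMIL2 led at 257 ± 12.1, 11.4 ± 0.180 and 9.71 ± 0.276 CPM per kb, followed by CARMIL3 at 4.398 ± 0.0228, CAPZA2 at 2.52 ± 0.120 and CARMIL1 at 1.86 ± 0.0747 (SD, n = 2). As measured, CARMIL3 thus stood above CAPZA2 and CARMIL1 in the H9 controls and below both with eIF2A shRNA. In the order of the H9 controls, too, neighbours did not overlap. With the GC and length trend removed and the libraries rescaled, the H9 change of CAPZA2 was -0.04 and not called (edgeR adjusted p = 0.69). Those of CARMIL1 at 0.62 and CARMIL3 at -0.40 were still called.

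The summed alpha subunit level was well below that of the beta subunit in every library. As a ratio of CPM per kb, alpha to beta was 0.203 and 0.212 with eIF2A siRNA in HEK293T, against 0.172 and 0.173 in the controls. In H9 it was 0.107 and 0.109 with eIF2A shRNA, against 0.0560 and 0.0527 in the controls. The ratio was higher with the knockdown in both lines as measured. The alpha transcripts are 40.7 and 42.4% GC and that of CAPZB 53.0%. After removal of the GC and length trend and rescaling, CAPZA1, CAPZA2 and CAPZB stood at 0.04, -0.04 and -0.05 in H9, none of them called. The counted accession of each gene stands for 1 transcript, and reads of other isoforms that it does not cover would not enter this ratio. CAPZA1 made up 90.1 and 90.1% of the alpha level with eIF2A siRNA, against 88.8 and 88.5% in the HEK293T controls, and 80.04 and 80.01% with eIF2A shRNA, against 81.2 and 82.6% in the H9 controls. The summed CARMIL level over that of CAPZB was 0.0796 and 0.0864 with eIF2A siRNA, against 0.0462 and 0.0469 in the HEK293T controls. In H9 this ratio was 0.0659 and 0.0683 with eIF2A shRNA, against 0.0638 and 0.0608 in the controls. The summed CARMIL level holds the CARMIL2 level for which the genes were chosen, so nothing is read from this ratio in either line.

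Between the control groups, H9 was set against HEK293T, where cell line, arsenite and the means of knockdown cannot be told apart. CARMIL3 was 5.95-fold higher in the H9 controls (log2 difference 2.57 ± 0.11, edgeR adjusted p = 9.2e-22). CAPZB was higher by 0.93 ± 0.035 on the log2 scale (edgeR adjusted p = 2.2e-23) and CARMIL1 by 0.58 ± 0.11 (edgeR adjusted p = 1.9e-05). CAPZA1 was lower in the H9 controls (log2 difference -0.85 ± 0.052, edgeR adjusted p = 5.2e-17). CAPZA2 overlapped between the control groups (-0.07 ± 0.087, edgeR adjusted p = 0.49). With the GC and length trend removed, however, CAPZA2 was called higher in the H9 controls, by 0.23 (edgeR adjusted p = 0.015), or 0.22 after rescaling (adjusted p = 0.020). CAPZA1 then stood at -0.47, or -0.48 after rescaling, and the other members tested kept their direction and their calls. CARMIL2 stood 1.18 ± 0.063 higher on the log2 scale in the H9 controls, with no test because these libraries also chose it. As measured, 4 of the 5 genes tested passed, beside 83.5% of all genes.

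CARMIL2 lies in a crowded stretch of the genome, and its neighbours were read beside it. In the RefSeq gene table ACD, a shelterin subunit on the opposite strand, overlaps the end of CARMIL2, CTCF, the insulator protein, is the nearest gene before it and PARD6A, a cell polarity protein, the nearest after it. The libraries came from a stranded kit, but the sources used here do not give the strand setting of the count, and reads of ACD and CARMIL2 in the overlap may be shared. In HEK293T ACD stood at 42.9 and 43.8 CPM with eIF2A siRNA and at 45.4 and 46.3 CPM in the controls (log2 fold change -0.08, edgeR adjusted p = 0.24), so it did not move with CARMIL2 there. In H9 ACD fell to 46.0 and 45.3 CPM with eIF2A shRNA, against 74.3 and 77.8 CPM (log2 fold change -0.74 ± 0.049, edgeR adjusted p = 2.9e-15). With the GC and length trend removed this fall was -0.12 (adjusted p = 0.031), and -0.27 after rescaling (adjusted p = 1.7e-05).

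PARD6A rose in HEK293T, to 4.18 and 3.18 CPM with eIF2A siRNA against 2.05 and 2.51 CPM in the controls (log2 fold change 0.67 ± 0.17, edgeR adjusted p = 0.0027). Without the first eIF2A siRNA library its change was 0.46 and was not called (adjusted p = 0.12). In H9 it fell to 15.8 and 15.7 CPM, against 24.4 and 26.2 CPM (log2 fold change -0.69 ± 0.085, edgeR adjusted p = 7.2e-09), but with the GC and length trend removed it was at 0.06 (adjusted p = 0.60), and at -0.09 after rescaling (adjusted p = 0.39), with no call. CTCF stood at 39.9 and 40.9 CPM with eIF2A siRNA and at 34.3 and 37.3 CPM in the controls, a rise that was called (log2 fold change 0.17 ± 0.054, edgeR adjusted p = 0.018) but lost, among other settings, without the first control library (0.12, adjusted p = 0.14), without the first eIF2A siRNA library (0.19, adjusted p = 0.052) or without the second (0.15, adjusted p = 0.12). In H9 CTCF rose to 100.6 and 97.3 CPM, against 63.0 and 60.2 CPM (log2 fold change 0.68 ± 0.048, edgeR adjusted p = 8.6e-15), with 0.54 when the trend was removed and 0.39 after rescaling, both still called.

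**Figure D4:**
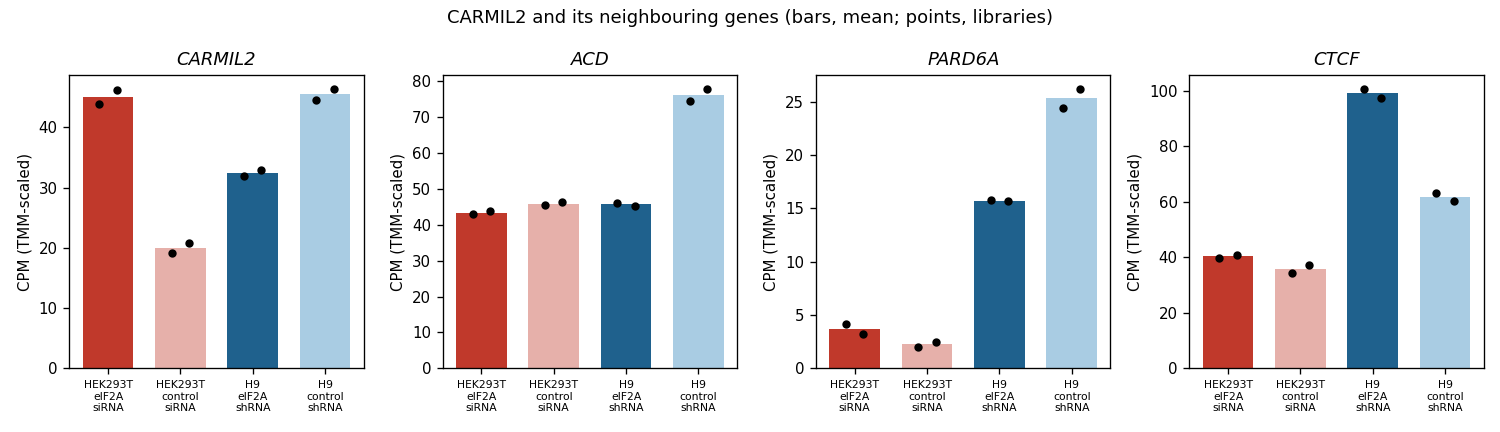
TMM-scaled CPM (vertical axis, linear from 0) of CARMIL2, of ACD, which overlaps its end, and of PARD6A and CTCF, which flank it; bars are means of 2 libraries, points are the libraries, and both HEK293T groups had arsenite. In HEK293T ACD stood at 42.9 and 43.8 CPM with eIF2A siRNA against 45.4 and 46.3 CPM in the controls, unlike CARMIL2.

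The genes whose level pattern over the 8 libraries was most like that of each member were found by the root mean square (RMS) difference of centred log2(CPM + 0.5) values, with Pearson's r beside it. For CARMIL2 these were PLCH2 (RMS 0.106, r 0.98), AJM1 (0.171, r 0.95), ADAM8 (0.221, r 0.91), INTS5 (0.228, r 0.92) and RHBDL1 (0.233, r 0.88). INTS5, an Integrator subunit, stood at 79.9 and 87.1 CPM with eIF2A siRNA, against 59.8 and 55.1 CPM with control siRNA. H9 libraries held 76.7 and 80.7 CPM of it with eIF2A shRNA, against 100.7 and 106.9 CPM with control shRNA. The other 4 had low levels, PLCH2 reaching at most 1.22 CPM. CARMIL1 was most like DYRK1A (RMS 0.0533) and ADNP (0.0736), and CARMIL3 most like IGFBP2 (0.0573) and IMPA2 (0.0617). CAPZA1 was most like RSL1D1 (0.0489) and ANKRD49 (0.0517), CAPZA2 most like UBA2 (0.0211) and HNRNPU (0.0452), and CAPZB most like C2orf68 (0.0415) and SLC38A12 (0.0458). The nearest gene to CARMIL2 lay further from it than the nearest gene to any other member did from that member. CARMIL2 had been chosen for its pattern in these same libraries, so nothing is read from this distance.

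Other proteins that bind capping protein, most of them through a capping protein interaction motif, were read from a list of 9, of which 8 were tested. In HEK293T 2 were called higher and 1 lower (14.1% and 14.7% of all genes), with a median log2 fold change of 0.16, or 0.13 without RCSD1, which had at most 1 count in any HEK293T library. CD2AP, an adaptor that holds the motif, fell to 3.06 and 3.91 CPM with eIF2A siRNA, against 5.14 and 5.59 CPM in the controls (log2 fold change -0.63 ± 0.15, edgeR adjusted p = 0.0012), and without the first eIF2A siRNA library this was -0.47 and not called (adjusted p = 0.060). PLEKHO1, also called CKIP-1, rose by 0.21 ± 0.048 on the log2 scale (edgeR adjusted p = 7.5e-04), and WASHC2C, the WASH complex subunit that holds the motif, by 0.42 ± 0.10 (edgeR adjusted p = 0.0015). In H9 5 were higher and 2 lower (37% and 34.3% of all genes), with a median of 0.77.

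The twinfilins, which bind both capping protein and actin monomers, parted in H9. TWF1 rose to 6.46 and 7.04 CPM with eIF2A shRNA, against 2.28 and 2.17 CPM in the controls (log2 fold change 1.59 ± 0.16, edgeR adjusted p = 1.1e-10). TWF2 fell to 78.82 and 80.03 CPM, against 125.8 and 131.2 CPM (log2 fold change -0.69 ± 0.045, edgeR adjusted p = 1.0e-15). With the GC and length trend removed and the libraries rescaled, TWF1 was at 1.11 (adjusted p = 5.3e-07) and TWF2 at -0.17 (adjusted p = 8.0e-04). WASHC2A and WASHC2C, near-identical copies whose reads the count may have divided, rose by 1.05 ± 0.091 and 1.09 ± 0.091, with 0.72 and 0.70 after the same step. By that step 4 of the 8 were higher and 1 lower, with a median of 0.28, beside 24.2% higher, 25.5% lower and a median of 0.01 over all genes.

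The remaining actin lists gave the setting. Over all genes tested in HEK293T, 14.1% were called higher and 14.7% lower, and these shares stand beside each count that follows. In HEK293T, of 9 Arp2/3 complex genes, which make the branches whose ends capping protein closes, 6 rose and 1 fell with a median log2 fold change of 0.23, and ARPC3 rose the most, by 0.30 ± 0.039 (edgeR adjusted p = 1.7e-07). Of 12 actins, monomer binders and depolymerisers 6 rose and none of the 12 was called lower (median 0.11), with 0.41 ± 0.069 for TMSB4X, thymosin beta 4 (edgeR adjusted p = 1.9e-05). Of 9 dynactin genes 5 rose and 3 fell (median 0.16), and DCTN6 changed the most, by 0.40 ± 0.14 (edgeR adjusted p = 0.029), a call that was lost without the first control library (0.32, adjusted p = 0.16) or the first eIF2A siRNA library (0.28, adjusted p = 0.28). Of 15 Arp2/3 activators 3 rose and 3 fell (median 0.03), ABI1 of the WAVE complex rising by 0.47 ± 0.070 (edgeR adjusted p = 2.5e-06). Of 14 formins and Ena/VASP proteins, which compete with capping protein for barbed ends, 1 rose and 3 fell (median -0.13), INF2 falling by 0.29 ± 0.041 (edgeR adjusted p = 9.5e-07). Of the 10 other barbed-end cappers and severers tested, from a list of 11, 1 rose and 1 fell (median -0.03), and the one that fell was FLII, a gelsolin relative, at -0.29 ± 0.033 (edgeR adjusted p = 1.3e-08). Counts this small rested in places on 1 library. Without the first eIF2A siRNA library 3 dynactin genes were higher and 1 formin or Ena/VASP gene lower, and without the second no formin or Ena/VASP gene was higher. Without the first control library, or without the second eIF2A siRNA library, no Arp2/3 complex gene was lower, and without the first control library 1 gene of the actin list was lower. With the GC and length trend removed, 1 formin or Ena/VASP gene was lower.

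In H9 each of these lists held called genes in both directions, as did all genes tested, with 37% called higher and 34.3% lower. The Arp2/3 complex had 3 higher and 4 lower genes (median -0.04), its activators 8 and 4 (median 0.16), formins and Ena/VASP proteins 6 and 5 (median 0.09), and barbed-end cappers and severers 3 and 5 (median -0.05). Actins and their monomer binders had 5 higher and 7 lower (median -0.23), and dynactin 3 and 5 (median -0.20). The largest change within each list is given next, with no ranking across lists. DAAM1, a formin, was at 2.04 ± 0.22 (edgeR adjusted p = 2.9e-10), ADD3, an adducin that caps barbed ends in the membrane skeleton, at 1.62 ± 0.096 (edgeR adjusted p = 1.3e-16), NCKAP1 of the WAVE complex at 1.52 ± 0.062 (edgeR adjusted p = 8.3e-21) and ACTR2 of the Arp2/3 complex at 1.12 ± 0.055 (edgeR adjusted p = 8.3e-19). CFL2, a cofilin, was at 0.85 ± 0.083 (edgeR adjusted p = 3.3e-11), and DCTN4 of dynactin at 0.57 ± 0.069 (edgeR adjusted p = 4.1e-09). With the trend removed and the libraries rescaled, DAAM1 stood at 1.27, ADD3 at 1.03, NCKAP1 at 0.76 and ACTR2 at 0.43, all still called, while CFL2 stood at -0.16 (adjusted p = 0.12) and DCTN4 at -0.19 (adjusted p = 0.021), both turned in sign. By this step 24.2% of all genes tested were called higher and 25.5% lower, with a median of 0.01, and these values stand beside each count that follows. The same step left 1 higher and 5 lower Arp2/3 complex genes (median -0.15), 5 and 5 activators (median -0.06), and 4 and 4 formins and Ena/VASP proteins (median 0.06). It left 4 and 4 barbed-end cappers and severers (median 0.11), 1 and 2 actins and monomer binders (median -0.03), and 2 and 4 dynactin genes (median -0.06), so that the medians of the barbed-end cappers and the activators turned in sign.

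**Figure D5:**
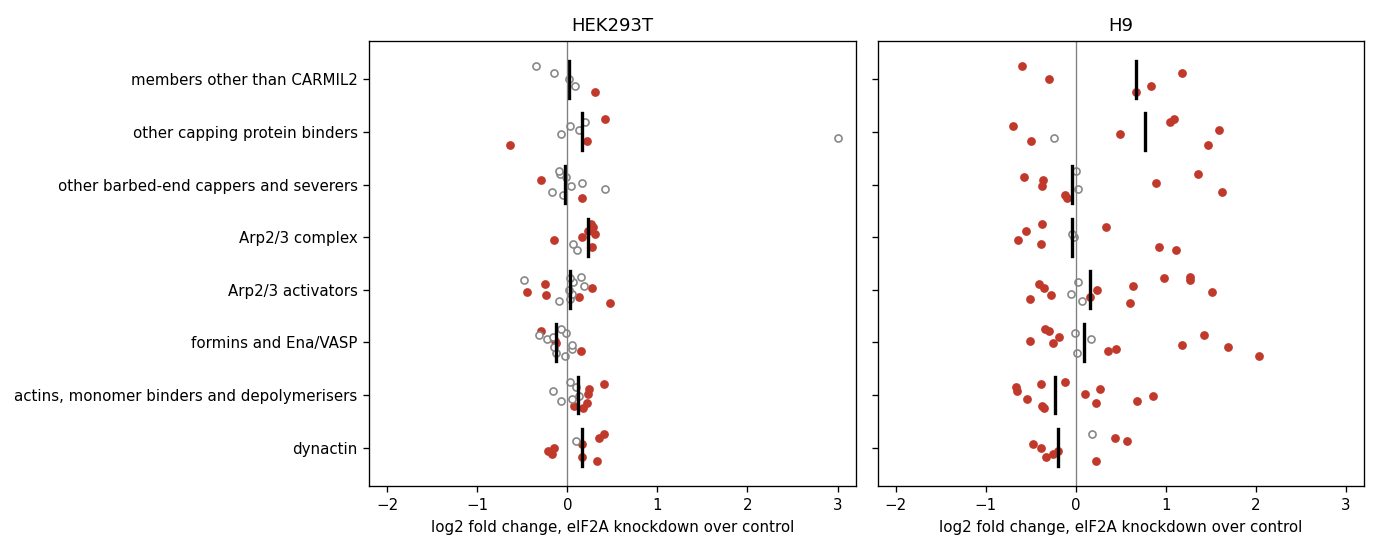
Log2 fold change, eIF2A knockdown over control (horizontal axis), of the 5 members other than CARMIL2 and of the genes tested in 7 actin and dynactin lists, in HEK293T with arsenite (left) and H9 (right); filled red points passed an adjusted p of 0.05 (edgeR), open points did not, and black lines are medians. In HEK293T the open point farthest to the right is RCSD1, which had 1 count in each knockdown library and 0 in each control. The H9 points of each list lie on both sides of 0.

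Markers of the cells in which CARMIL2 is best known were read in the same libraries. A list of 6 lymphocyte markers summed to 122.9 and 119.4 CPM with eIF2A shRNA in H9, against 208.7 and 208.9 CPM in the H9 controls, and to 0.566 to 1.02 CPM in HEK293T. PTPRC, which encodes CD45 of all nucleated blood cells, was at 0 counts in all 8 libraries, and CD28, the receptor that CARMIL2 serves in T cells, had at most 1 count in any. The H9 sum came almost wholly from LCK, a kinase of T cell receptor signalling, and CD4. LCK stood at 111.7 and 108.1 CPM with eIF2A shRNA in H9, against 189.4 and 189.7 CPM in the controls. The 7 fibroblast markers summed to 878 and 890 CPM with eIF2A shRNA in H9, against 1007 and 1013 CPM in the controls, most of it THY1, and to 37.8 to 39.8 CPM in HEK293T. Their part in the H9 results was not tested.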

How the data were processed

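Polyadenylated RNA was sequenced in 8 libraries, 2 in each of 4 groups taken from the sample titles. The labels' protocols name TRIzol extraction and a stranded TruSeq mRNA kit. The submitters' processing notes name cutadapt, STAR 2.5.2b and hg19. The authors deposited raw counts for each RefSeq accession, without normalization; no source used here gives the counting program, its strand setting or its annotation. Special counters stayed out of library sizes and tests: reads with no feature made up 15.0 to 20.8% of reads listed, and reads aligned to several places 4.11 to 4.54%, so paralog and pseudogene sequence lowers counts. Symbols came from a RefSeq gene table for 18884 accessions and from GENCODE for 227, and 194 stayed unnamed. Transcript length and GC content came from GENCODE transcripts of the same accession, and promoters from RefSeq (4 of 6 members matched). The gene table is of another build than hg19, so it gives no coordinates here.

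Counts were fitted with edgeR 4.0.16 in R 4.3.3: filterByExpr, TMM scaling, 4 group means over all 8 libraries (4 residual degrees of freedom), a robust two-sided quasi-likelihood F test and Benjamini-Hochberg adjustment over 14565 genes. Calls are at an adjusted p under 0.05, and the SE comes from the F statistic. The fit was tested on simulated counts with an assumed spread. Of 1.5-fold changes put into them, 67% were called in the right direction in HEK293T and 62% in H9. For 2-fold changes these shares were 91% and 87%. Changes of about 1.5-fold or less may therefore have been missed. CPM per kb divides TMM-scaled CPM by transcript length. The trend with GC content and length was fitted per library with mgcv 1.9.3 and used as an offset.

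The members and all gene lists were chosen with earlier results of these data known. Named genes were the members, CARMIL2's neighbours, the genes most like each member, and, per list and line, the 3 called genes with the smallest p and the called gene with the largest change, at a mean of at least 1 CPM; of lists other than the capping protein binders only the largest change is given, a limit set after the data had been seen. Alternatives were scaling by the upper quartile or by DESeq2 size factors, a filter of 5 CPM in 2 libraries or none, the DESeq2 1.42.0 Wald test, a fit to 1 line alone, a block for the set number, removal of the trend, and leaving out each library. TDGF1, a pluripotency marker, is not analysed here, and 1 lymphocyte marker is not reported here.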

Additional observations from a re-analysis of the deposited data

Results flagged for a closer look

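The effect of the eIF2A knockdown differed between H9 and HEK293T for 4 of the 5 members tested and for all 3 neighbours of CARMIL2. This was by a test of the difference itself (edgeR quasi-likelihood, Benjamini-Hochberg adjustment). The same test called 58.1% of all genes, so such calls were common. On the log2 scale, H9 minus HEK293T, the difference was 1.33 for CARMIL1, 0.36 for CAPZA1, 0.76 for CAPZA2 and -0.31 for CAPZB. Among the neighbours it was -0.65 for ACD, 0.52 for CTCF and -1.35 for PARD6A, with adjusted p of 8.2e-10, 1.7e-07 and 1.7e-07. After removal of the trend with GC content and length these were -0.07 for ACD, no longer called (adjusted p = 0.43), 0.40 for CTCF and -0.63 for PARD6A (adjusted p = 0.0060). After rescaling they were -0.22 for ACD (adjusted p = 0.010), 0.26 for CTCF (adjusted p = 0.0036) and -0.78 for PARD6A (adjusted p = 9.2e-04). Among the members the difference by removal alone was 0.94 for CARMIL1, still called, and was not called for the 3 subunit genes. After rescaling it was 0.79 for CARMIL1 and -0.22 for CAPZA1 (edgeR adjusted p = 0.011), both called, so that CAPZA1 turned in sign. CAPZA2 at -0.12 and CAPZB at -0.05 were not called after rescaling. For CARMIL2 the difference was -1.65: both knockdown libraries stood above both controls in HEK293T and below both in H9. That difference was not tested, since the gene had been chosen for it. The lines also differ in arsenite treatment and in the means of knockdown, which cannot be told apart from the line.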

How the results depend on the processing

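With 2 libraries a group, precision rests on their spread. Under leave-one-out the calls numbered 2903 to 4079 in HEK293T, 9522 to 10597 in H9, 7818 to 8496 for the difference and 11607 to 12234 between controls, beside 4182, 10380, 8467 and 12163; log2 fold changes of CARMIL2 ran from 1.12 to 1.23 in HEK293T and from -0.52 to -0.46 in H9, and no member lost a call or changed the direction of one. The DESeq2 Wald test called 2751 genes in HEK293T, with no adjusted p for 3671. DESeq2 size factors moved the H9 median of all genes to -0.13 and the split of the difference to 3730 higher and 5051 lower (4532 and 3935 with TMM), upper-quartile scaling moved the median between controls to -0.16, and no member's call turned sign under either; CAPZB in H9 was -0.45 with DESeq2 size factors, beside -0.29. With the set number as a replicate block the calls were 3847 in HEK293T and 10281 in H9, and no member's call changed. To see whether the set numbers pair libraries, the log2 difference between libraries 1 and 2 was taken within each group. Over 10057 genes, these differences in the knockdown correlated with those in the control at -0.0451 in HEK293T and 0.0243 in H9. The numbers are thus not shown to pair the libraries, and no crossed pairing was run.

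Removal of the GC and length trend turned signs; without rescaling it moved the H9 median of all genes to 0.16. Values are given for the removal alone, with the block, and rescaled (added after the data had been seen). In H9 they were 0.0912, 0.0916 and -0.0539 for CAPZB, 0.102, 0.102 and -0.043 for CAPZA2, 0.0555, 0.0559 and -0.0894 for PARD6A, -0.0121, -0.0133 and -0.157 for CFL2 and -0.0435, -0.043 and -0.188 for DCTN4. For the difference they were -0.0686, -0.0692 and -0.215 for CAPZA1, 0.0973, 0.0983 and -0.0496 for CAPZB and 0.0264, 0.0248 and -0.12 for CAPZA2. Between controls they were 0.23, 0.23 and 0.22 for CAPZA2 and 0.30, 0.30 and 0.29 for EIF2A. The cause was not tested.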

Other observations

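CAPZA3, the testis-specific alpha subunit gene of capping protein, was at 0 counts in all 8 libraries. Taken alone, a library with 0 counts leaves room for an expected count of up to 3, whatever its depth.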
